A study of Homo sapiens with 8 samples.

Results

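The UGT2B androgen glucuronidation enzymes were taken as 7 genes, UGT2B4, UGT2B7, UGT2B10, UGT2B11, UGT2B15, UGT2B17 and UGT2B28. A gene was found through probes annotated with one of its RefSeq accessions, which gave 5 of the 7 genes 1 probe each, against 28748 genes tested on the arrays in all. No probe matched UGT2B17 or UGT2B28 by that rule, and these 2 genes were not analysed here. The genes were chosen by their measured difference between siGATA2 and siControl arrays, which was already known, so the values below describe them and no test of that difference is given.

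All samples were LNCaP cells, an androgen-sensitive line derived from a prostate cancer metastasis, kept in serum-containing medium and transfected with siRNA at 30 nM. RNA was taken 72 h later from 4 replicates that received siGATA2, a single siRNA reagent against the transcription factor GATA2. Another 4 replicates received siControl, a scrambled sequence. The labels do not say whether the replicates were separate cultures. Each RNA was measured on 1 one-colour Agilent array. All 7 luminal markers of LNCaP cells examined, among them KLK3 (prostate-specific antigen), the homeobox gene HOXB13 and the keratin genes KRT8 and KRT18, were well above background on all 8 arrays.

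UGT2B enzymes sit in the endoplasmic reticulum and attach glucuronic acid, taken from UDP-glucuronic acid, to small lipophilic molecules, which makes them water-soluble and ready for export. In prostate epithelium UGT2B15 and UGT2B17 conjugate testosterone, dihydrotestosterone and their metabolites and so end the androgen signal inside the cell, while UGT2B7 and UGT2B4 are best known as liver enzymes for steroids, bile acids and drugs. The genes lie side by side on chromosome 4 and arose by duplication, and in LNCaP cells androgens are known to lower the transcripts of UGT2B15 and UGT2B17.

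Levels are log2 processed signals, the background-corrected brightness of a probe, quantile-normalized over the 8 arrays. Differences are given as siGATA2 minus siControl, so 1 unit is a 2-fold change. For the UGT2B members and their ratios the standard error comes from the spread of the 4 arrays in each group. For all other genes it is limma's moderated standard error, which also draws on the spread of all probes tested. Probes bind with unequal efficiency, so the level of one gene says nothing about its abundance next to another. Related UGT2B transcripts may also bind the same probe. No probe sequences were used here and this was not tested, so each value belongs to the probe annotated with that gene. The GATA2 probe did not read lower on the arrays labelled siGATA2. This probe measures RNA, and GATA2 protein was not analysed here. It read 12.61, 12.54, 11.57 and 11.40 on these arrays, in replicate order, against 11.74, 11.28, 11.10 and 11.29 on the controls (difference 0.68, standard error 0.31, limma adjusted p = 0.151). Directions below refer to the arrays by their labels.

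Transcripts of 4 UGT2B enzymes were lower on every array labelled siGATA2 than on every array labelled siControl, by 5.78-fold to 23.3-fold on average. These were UGT2B15, UGT2B11, UGT2B7 and UGT2B10, all of them well above background on all 8 arrays. The UGT2B4 probe was close to background and its groups overlapped. Of all 28748 genes tested, 16.5% were lower without overlap and 8.38% were at least 2-fold lower, but since the difference chose the genes, nothing is read from 4 of 5 against these shares. The median difference of all genes was 0.09. RNA came from whole cultures, so fewer cells that express a gene and less of its RNA per cell cannot be told apart.

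UGT2B15, the enzyme that conjugates dihydrotestosterone and androstanediol, had the largest difference of the family. Its level was 8.09, 8.17, 8.36 and 8.50 across the 4 siGATA2 arrays and 12.08, 13.20, 12.82 and 13.20 across the 4 siControl arrays, in replicate order. The dimmest siControl array lay 3.58 above the brightest siGATA2 array. The means were 8.28 ± 0.184 and 12.83 ± 0.528 (SD, n = 4 each), a difference of -4.54 (standard error 0.279) or 23.3-fold. On the linear scale before normalization, the processed signal was between 305 and 358 on the siGATA2 arrays and between 2527 and 12950 on the siControl arrays. In the order of differences over the 17809 genes with a symbol, UGT2B15 was number 4 from the lowest, UGT2B11 number 34, UGT2B7 number 155 and UGT2B10 number 177.

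UGT2B11, a close relative of UGT2B10 with activity reported mainly on oxidised fatty acids, came next. Its level was 7.43, 7.52, 8.07 and 8.01 on the siGATA2 arrays and 9.84, 11.69, 11.38 and 11.71 on the siControl arrays, in array order. The difference was -3.40 (standard error 0.475), or 10.5-fold, from means of 7.76 ± 0.330 and 11.15 ± 0.891 (SD, n = 4 each). The groups were 1.77 apart at their nearest arrays, and siControl array 1 was the one that came closest to the siGATA2 arrays.

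UGT2B7, which acts on a wide range of steroids, bile acids and drugs, had levels of 7.30, 7.78, 7.90 and 7.95 on the siGATA2 arrays and of 9.03, 10.92, 10.50 and 10.89 on the siControl arrays. The means were 7.73 ± 0.300 and 10.33 ± 0.890 (SD, n = 4 each), 6.07-fold apart (difference -2.60, standard error 0.470). Its gap between the groups, 1.08, was the narrowest of the 4 bright probes. UGT2B10, best known for attaching glucuronic acid to tertiary amines such as nicotine, had levels of 9.64, 9.83, 9.75 and 9.85 against 11.45, 12.64, 12.52 and 12.60. Its siGATA2 arrays were the most alike of any member, with a mean of 9.77 ± 0.0964 against 12.30 ± 0.571 (SD, n = 4 each), a difference of -2.53 (standard error 0.290) or 5.78-fold.

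UGT2B4, a liver enzyme for bile acids and catechol oestrogens, was a different case. Its probe gave 2.45, 2.07, 2.72 and 3.59 on the siGATA2 arrays and 2.00, 4.69, 3.43 and 4.55 on the siControl arrays. It was well above background on siGATA2 array 4 and on siControl arrays 2 and 4 only, and its lowest value of all was on siControl array 1. The difference of -0.96 (standard error 0.702) came from means of 2.71 ± 0.648 and 3.67 ± 1.25 (SD, n = 4 each), and the mean over the 8 arrays, 3.19, was just over the minimum of 3 set on the mean level. It passed that minimum through the siControl arrays.

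**Figure D1:**
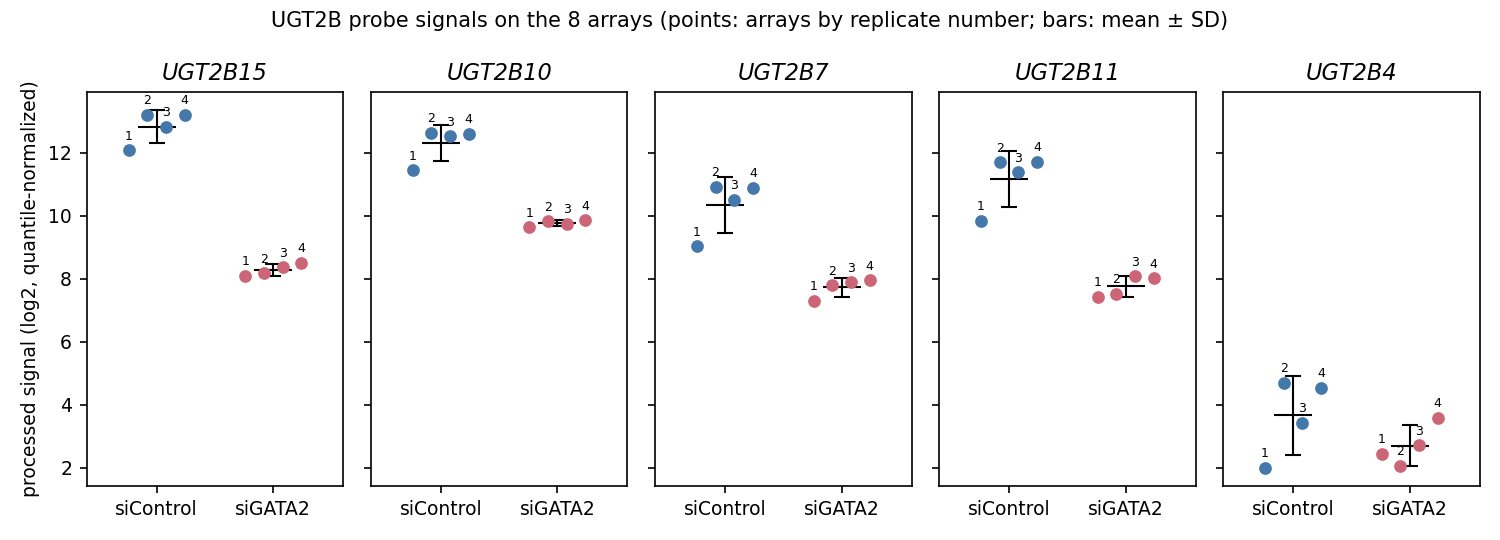
Level (log2 processed signal, quantile-normalized) of the 5 UGT2B probes on each array, with 1 point an array and bars for the mean ± SD of each group. For UGT2B15, UGT2B11, UGT2B7 and UGT2B10 all 4 siGATA2 arrays lie under all 4 siControl arrays, siControl array 1 is the lowest of its group, and for UGT2B4 the groups overlap.

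One array set much of the spread among the controls. On siControl array 1 UGT2B15 was 0.99 below the mean of the other 3 siControl arrays, UGT2B10 was 1.14 below, UGT2B7 1.74, UGT2B11 1.76 and UGT2B4 2.22. Placed on a scale from 0, the siGATA2 mean, to 1, the mean of the other 3 siControl arrays, array 1 stood at 0.79 for UGT2B15, 0.60 for UGT2B10, 0.54 for UGT2B11 and 0.43 for UGT2B7, and at -0.47, outside the scale, for UGT2B4. This array also had a mean log2 signal of 11.13 for the E1A spike-in RNA, against 13.45 to 13.83 on the other 7 arrays, and 28521 probes well above background, against 34009 and 34837 on siControl arrays 4 and 2 and 24261 on siControl array 3. The part of these technical values in its lower UGT2B signals was not tested. Without siControl array 1 the differences were -4.79 for UGT2B15, -3.84 for UGT2B11, -3.04 for UGT2B7 and -2.82 for UGT2B10. UGT2B4 moved from -0.96 to -1.52.

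The arrays sat in 2 rows of 1 slide. Row 1 held siGATA2 arrays 1 to 3 with siControl array 4, and row 2 held the other 4 arrays. In row 1 the differences were -4.99 for UGT2B15, -4.04 for UGT2B11, -3.23 for UGT2B7 and -2.86 for UGT2B10, and in row 2 they were -4.20, -2.96, -2.20 and -2.35. The 4 bright members were lower within each row, which follows from groups that do not overlap. UGT2B4 was lower in row 1, by -2.13, and not in row 2, at 0.22. With the row as a block the differences were -4.59, -3.50, -2.71, -2.60 and -0.96 in the order UGT2B15, UGT2B11, UGT2B7, UGT2B10 and UGT2B4.

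The members did not move by the same amount, which ratios within each array show without any scaling between arrays beyond the quantile step. The log2 ratio of the UGT2B15 to the UGT2B10 signal was 0.53 ± 0.150 (SD, n = 4) on the siControl arrays, where it ran from 0.31 to 0.64, and -1.48 ± 0.142 (SD, n = 4) on the siGATA2 arrays, where it ran from -1.66 to -1.35. It changed by -2.01 (standard error 0.103), so siControl array 1 stood with the other controls in this ratio although both signals were low there. The UGT2B7 to UGT2B11 ratio was -0.82 ± 0.0418 (SD, n = 4) on the siControl arrays and -0.02 ± 0.199 (SD, n = 4) on the siGATA2 arrays, a change of 0.80 (standard error 0.102). The UGT2B11 to UGT2B10 ratio changed by -0.87 (standard error 0.222). In this ratio siControl array 1 was the lowest control, at -1.61, close to the highest siGATA2 array at -1.68. For UGT2B7 against UGT2B10 the change was -0.07 (standard error 0.200), within its standard error. There siControl array 1, at -2.42, was apart from the other controls and under the lowest siGATA2 array, at -2.34. The value of a ratio depends on the efficiency of both probes, and only its change between groups can be read.

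**Figure D2:**
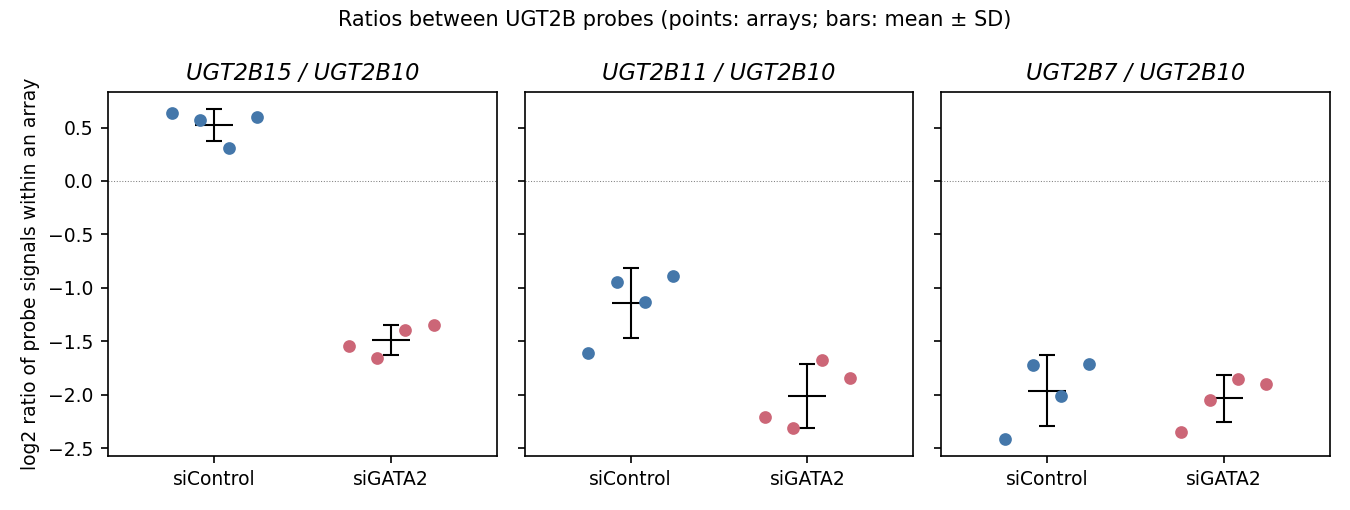
Log2 ratio of the signals of pairs of UGT2B probes on the same array, by group, with 1 point an array and bars for the mean ± SD. The UGT2B15 to UGT2B10 ratio lies between 0.31 and 0.64 on the siControl arrays and between -1.66 and -1.35 on the siGATA2 arrays, while the UGT2B7 to UGT2B10 ratio has overlapping groups.

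Across the 8 arrays the levels of the 4 bright members correlated at Pearson's r from 0.963 to 0.994, and each of them with UGT2B4 at 0.608 to 0.758. These values describe 8 arrays that fall into 2 separate groups and share the same normalization. Inside the siControl group the deviations of the 5 genes from their means correlated at 0.927 to 0.999, with array 1 low in all of them, and inside the siGATA2 group at 0.362 to 0.915. UGT2B10 had the highest mean level of the members. The 5 genes whose level was most like it over the 8 arrays, among 13267 with a symbol and a signal well above background on all arrays, were USP18 (r = 0.999), NOP16 (0.998), TAB1 (0.998), ZNF219 (0.997) and GLS2 (0.997), and 137 genes had r above 0.99. Their differences between the groups were smaller than that of UGT2B10, at -0.77, -1.57, -0.73, -0.69 and -1.31.

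The sequences just before the start of the genes are shown because the 4 bright members were low together on the same arrays. The RefSeq promoter table of GRCh38.p14 gave an entry for these 4 of the 7 genes, and the 250 bases before the annotated start are printed here, 5′ to 3′ on the strand of the gene. Capitals mark a run of 12 bases that all 4 windows share with the forkhead match that overlaps it, and, nearer to the start, a match to the GATA motif.
UGT2B15 (chr4:68670653-68670902, minus strand): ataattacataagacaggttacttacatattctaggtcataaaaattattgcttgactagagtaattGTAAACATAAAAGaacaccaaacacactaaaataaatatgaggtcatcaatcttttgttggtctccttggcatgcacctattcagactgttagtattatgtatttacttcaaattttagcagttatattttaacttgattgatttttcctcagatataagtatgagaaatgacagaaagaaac
UGT2B10 (chr4:68815744-68815993, plus strand): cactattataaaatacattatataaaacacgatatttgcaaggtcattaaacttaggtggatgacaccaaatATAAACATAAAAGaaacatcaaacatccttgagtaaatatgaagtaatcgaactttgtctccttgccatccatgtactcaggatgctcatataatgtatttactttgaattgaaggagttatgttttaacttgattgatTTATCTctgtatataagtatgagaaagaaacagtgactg
UGT2B11 (chr4:69214749-69214998, minus strand): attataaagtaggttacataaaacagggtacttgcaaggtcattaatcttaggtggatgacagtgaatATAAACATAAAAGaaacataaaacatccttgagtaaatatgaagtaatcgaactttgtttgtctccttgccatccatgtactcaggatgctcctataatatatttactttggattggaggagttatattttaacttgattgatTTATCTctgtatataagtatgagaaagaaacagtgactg
UGT2B7 (chr4:69096224-69096473, plus strand): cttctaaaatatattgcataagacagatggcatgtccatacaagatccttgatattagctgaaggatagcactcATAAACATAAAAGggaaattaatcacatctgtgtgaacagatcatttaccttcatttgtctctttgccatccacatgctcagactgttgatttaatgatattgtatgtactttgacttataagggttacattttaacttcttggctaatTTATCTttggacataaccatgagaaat
The shared run, TAAACATAAAAG, began 175 to 182 bases before the start. It was picked as the longest run present in all 4 windows, so its presence in them was fixed in advance. Every promoter was searched over the 250 bases before the start only. The run occurred in 6 of 35116 promoters of the table, the other 2 belonging to GABRG3-AS1 and LOC105377188. A GATA motif, searched on both strands as the letters AGATAA or as AGATAG, and likewise as TGATAA or else as TGATAG, was found in UGT2B10 and UGT2B11 from 39 to 34 bases before the start and in UGT2B7 from 27 to 22 bases before it, but not in the window of UGT2B15, which had the largest difference. Such a match was present in 22.3% of all promoters searched. A forkhead motif, TGTTTAC or TGTTTAT, overlapped the shared run in all 4 windows and occurred in 6.56% of promoters. Most of its letters lie within the run, so its presence in all 4 windows is not separate from the run. Each match is a match of letters only. The 250 bases were aligned in pairs, and identity was counted over aligned bases only, leaving out 8 to 42 gap positions a pair. By this count the windows of UGT2B10 and UGT2B11 were 93.1% identical, and each of them was 77.4% identical to that of UGT2B15. UGT2B7 was the most distant, at 68.6% to 73.0%. UGT2B10 and UGT2B11, the most alike in these bases, differed by 0.87 in how far their signals were apart between the groups. The part of these matches and of the likeness of the windows in the UGT2B signals was not tested.

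The chromosome around the UGT2B genes held few other measurable transcripts. In the RefSeq gene order the protein-coding genes ran TMPRSS11B, YTHDC1, TMPRSS11E, UGT2B17, UGT2B15, UGT2B10, UGT2A3, UGT2B7, UGT2B11, UGT2B28, UGT2B4, UGT2A1, UGT2A2 and SULT1B1. YTHDC1, a nuclear reader of methylated adenosine in RNA, was well above background on all arrays, and its difference was 0.30 (standard error 0.251, limma adjusted p = 0.409). UGT2A2 was tested, although none of its signals was well above background (difference -0.63, standard error 0.523, limma adjusted p = 0.410). UGT2A3 and UGT2A1, further members of the UGT2 family, and the sulfotransferase gene SULT1B1 were below that mark on all arrays and under the minimum level. TMPRSS11B and TMPRSS11E, serine protease genes, were not among the genes tested.

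Around the UGT2B enzymes, 7 lists of related genes with 81 members were examined, of which 66 were tested. Of these, 18 fell (27.3%), 9 rose (13.6%) and 39 did not pass an adjusted p of 0.05 in limma, with a median difference of -0.11. Over all 28748 genes, 14.2% fell and 12.4% rose by the same rule. The share that rose was thus near that of all genes. The shares of all genes, 14.2% and 12.4%, also stand beside the counts of each list below. Of the 9 that rose, 6 were well above background on all 8 arrays and 3 (ABCC3, PAPSS2 and HNF4A) on none of the siControl arrays. Scaling to the E1A spike-in probes ended 13 of the 27 calls, 5 of genes that fell and 8 of genes that rose. The lists were drawn up with results of these data known.

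Among the other glycosyltransferases of the superfamily, 2 of 5 tested fell and none rose. UGT8, which makes galactosylceramide in the synthesis of myelin lipids, fell by 1.77 on the log2 scale, from 9.07 to 9.28 on the siControl arrays to 7.37 to 7.48 on the siGATA2 arrays (standard error 0.0968, limma adjusted p = 2.31e-05). UGT1A6, an enzyme for small phenols whose last exons are shared with the other UGT1A transcripts, fell by 1.02 by its brightest probe (standard error 0.193, limma adjusted p = 0.00576). Its second probe, well above background on 3 siGATA2 and 2 siControl arrays, did not pass (limma adjusted p = 0.476), and the call ended with the mean of both probes (limma adjusted p = 0.207) and with E1A scaling (limma adjusted p = 0.0871). The steroid and bilirubin enzyme UGT1A1 had no tested probe. UGT3A1, UGT3A2 and UGT2A2 did not pass.

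Genes listed for the supply of the sugar donor, UDP-glucuronic acid, moved both ways. Of 9 genes, all tested, 2 fell and 2 rose, but UXS1, among those that fell, uses up the donor. HK2, the inducible hexokinase, fell by 1.99 (standard error 0.119, limma adjusted p = 2.90e-05). Its second probe was well above background on 1 siControl array and on no siGATA2 array. UXS1, which turns UDP-glucuronic acid into UDP-xylose, fell by 0.86 (limma adjusted p = 0.00156). HK1, the constitutive hexokinase, rose by 0.65 (limma adjusted p = 0.0330) and PGM2, a phosphoglucomutase, by 0.54 (limma adjusted p = 0.0244). Both of these calls ended on leaving out siControl array 2 or 3 or siGATA2 array 3 or 4, and 1 of them without siControl array 4 (for HK1, limma adjusted p = 0.0578 to 0.0815). UGDH, the dehydrogenase that forms UDP-glucuronic acid itself, had a difference of -0.36 (standard error 0.180, limma adjusted p = 0.179), and SLC35D1, which carries the donor into the endoplasmic reticulum, had no array with a signal well above background.

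After conjugation, glucuronides leave the cell through ABC transporters and can be split again by beta-glucuronidase. Of these 6 genes, 2 rose and none fell. ABCC3, an efflux pump for glucuronides, was between 5.54 and 6.52 on the siGATA2 arrays and on the siControl arrays, none of which had it well above background, it read 2.83 to 3.46. It was higher on the siGATA2 arrays (limma adjusted p = 0.000107), by 5.29-fold with dim siControl signals raised as follows. On each siControl array the higher was taken of its own signal and the lowest signal of any probe well above background. This fold is not a minimum, since probes not well above background reached 3.91 to 6.84 on the siControl arrays. With normexp background correction the difference of ABCC3 was 0.91. Its second probe was well above background on all 4 siGATA2 arrays and on 1 siControl array. ABCC1, a pump for glutathione and glucuronide conjugates, rose by 1.28 (standard error 0.0978, limma adjusted p = 7.58e-05). GUSB, the lysosomal beta-glucuronidase, had a difference of 0.15 (standard error 0.241, limma adjusted p = 0.676).

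Sulfation is the other conjugation route for steroids. Of 8 genes listed 5 were tested, of which 1 rose and none fell. PAPSS2, which makes the sulfate donor, rose by 0.99 (standard error 0.311, limma adjusted p = 0.0482), but its groups overlapped. None of the siControl arrays had it well above background. With dim signals raised as for ABCC3 it was 1.25-fold higher, which is not a minimum either. No gene of this list rose in 6 of the 8 fits that left out 1 array (siControl array 2, 3 or 4 or siGATA2 array 1, 2 or 4). SULT2B1, SULT2A1, PAPSS1 and the steroid sulfatase STS did not pass.

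Enzymes that make, reduce or oxidise androgens fell in 6 of 14 tested genes and rose in none, with a median difference of -0.60. HSD17B2, which oxidises testosterone to androstenedione, fell by 2.16, from 5.83 to 6.81 on the siControl arrays to 4.15 to 4.47 on the siGATA2 arrays (standard error 0.214, limma adjusted p = 0.000239). With normexp background correction its difference was -0.81. HSD17B11, an oxidising 17-beta-hydroxysteroid dehydrogenase of lipid droplets, had a difference of -1.60 and SRD5A3, a polyprenol reductase of the 5-alpha-reductase family, one of -1.13 (limma adjusted p = 0.00138 for both). HSD17B6 and HSD17B10 also fell, by 0.94 and 0.73. HSD3B1 passed the test too (limma adjusted p = 0.00491), but its probe was well above background on only 2 arrays of each group and the call ended with normexp (limma adjusted p = 0.383). SRD5A1, the 5-alpha-reductase that forms dihydrotestosterone in LNCaP cells, and AKR1C3, which reduces androstenedione to testosterone, did not pass, with differences of -0.10 (standard error 0.280, limma adjusted p = 0.811) and -0.46 (standard error 0.604, limma adjusted p = 0.605).

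Of 17 tested transcription factors known from work on UGT2B gene control, 2 fell and 2 rose. Neither share was above that of all genes tested, of which 14.2% fell and 12.4% rose. VDR, the vitamin D receptor, fell by 1.62 (standard error 0.0931, limma adjusted p = 2.60e-05) and CEBPA by 0.79 (limma adjusted p = 0.000995). PPARA, a lipid-sensing nuclear receptor, rose by 0.89 (standard error 0.116, limma adjusted p = 0.000889), while its second probe, with a difference of 0.74, did not pass (limma adjusted p = 0.0721). HNF4A, a liver factor, is the other gene counted as a rise (limma adjusted p = 0.0411), but no siControl array had its probe well above background, its siGATA2 signal did not exceed the limit that these arrays allow, and no fold is given. Its call also ended without siControl array 3 or 4 or siGATA2 array 2 or 3. FOXA1, the forkhead factor of luminal cells, lay between 14.74 and 15.02 on all 8 arrays, with a difference of 0.03 (standard error 0.102, limma adjusted p = 0.860).

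Genes that androgens induce in LNCaP cells fell in 6 of 10 cases, and 2 rose, with a median difference of -1.58. TRPM8, a cation channel, fell by 5.05 (standard error 0.180, limma adjusted p = 1.15e-05) and KLK3 fell too (difference -1.63, standard error 0.454, limma adjusted p = 0.0310), though its call ended without any one siControl array or without siGATA2 array 3 or 4 (limma adjusted p = 0.0579 to 0.0719). NDRG1, a stress-responsive gene, rose by 1.21 (limma adjusted p = 0.000282) and ACSL3, a long-chain acyl-CoA ligase, by 1.13 (limma adjusted p = 0.000200). UGT2B15, which androgens lower in these cells, and KLK3 and TRPM8, which androgens raise, all had lower signals on the siGATA2 arrays.

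**Figure D3:**
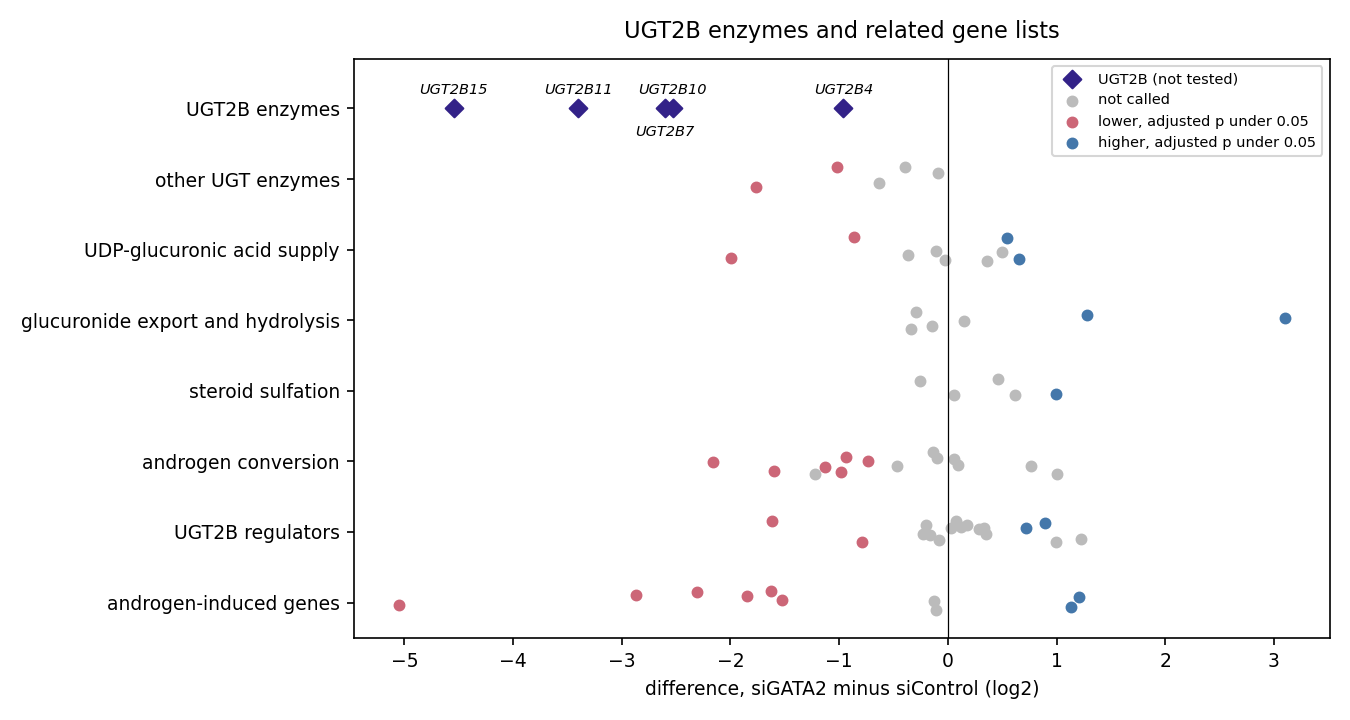
Difference siGATA2 minus siControl (log2) of the 5 UGT2B probes, which were not tested, and of each tested gene of the 7 related lists, coloured by its limma call at an adjusted p under 0.05. The UGT2B points run from -4.54 (UGT2B15) to -0.96 (UGT2B4), and TRPM8 at -5.05 is the one list gene left of UGT2B15.

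Because UGT2B7 and UGT2B4 are liver enzymes, markers of hepatocytes were set beside them, with markers of other cell types. Of 5 hepatocyte markers 4 were tested, of which TTR and APOA1 fell, by 3.06 and 1.05 (limma adjusted p = 0.00168 and 0.0302), and SERPINA1 rose by 0.43 (limma adjusted p = 0.0280). ALB (albumin) also passed the test downward (limma adjusted p = 0.00312), with a probe well above background on 2 siGATA2 and 3 siControl arrays, which read 2.88 to 3.73 and 4.75 to 7.18. The second APOA1 probe had a difference of 0.82 (limma adjusted p = 0.0567), and with the mean of both the call ended (limma adjusted p = 0.780). Their mean level ran from 6.22 to 7.12 over the siGATA2 arrays and from 7.70 to 8.65 over the siControl arrays. APOB had no signal well above background. None of the 2 basal and 3 stromal markers tested passed, and of 3 leukocyte markers PTPRC rose by 0.87 (limma adjusted p = 0.00146), a call that ended with the mean of its probes (limma adjusted p = 0.663). The calls of APOA1, SERPINA1 and PTPRC ended with E1A scaling. Of the 7 luminal markers 3 fell and 1 rose, and their mean level ran from 14.56 to 15.16 against 15.21 to 15.36. The part of these marker shifts in the UGT2B values was not tested.

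**Figure D4:**
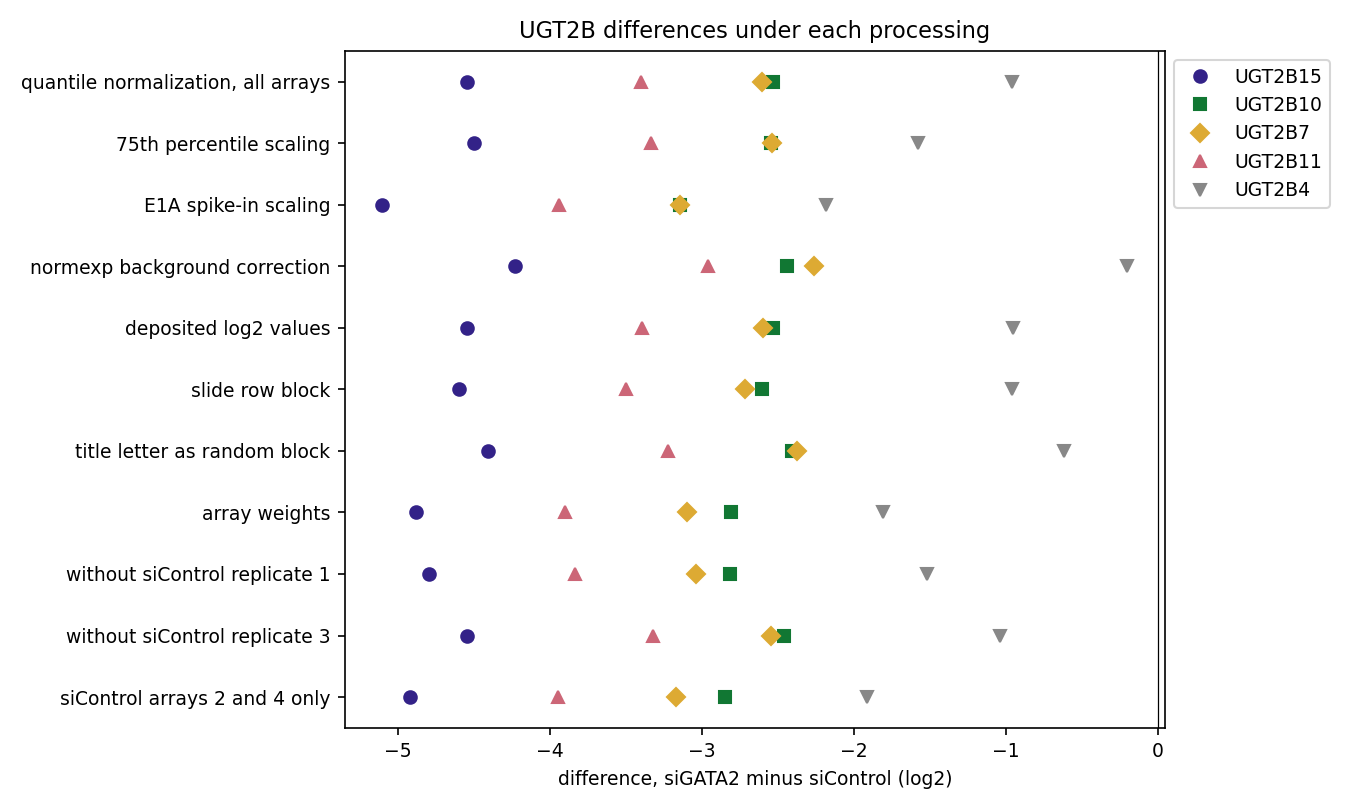
Difference siGATA2 minus siControl (log2) of each UGT2B probe under each way of processing the arrays, with 1 point a setting. UGT2B15 stays between -5.10 and -4.23, UGT2B11 between -3.94 and -2.96, UGT2B7 between -3.17 and -2.26 and UGT2B10 between -3.15 and -2.41, while UGT2B4 runs from -2.18 to -0.20.

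Over these ways of processing, the range of UGT2B15 lay clear of those of the other members, while the ranges of UGT2B11, UGT2B7 and UGT2B10 overlapped. Within each single setting, however, the difference of UGT2B11 was larger than those of UGT2B7 and UGT2B10.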

How the data were processed

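Total RNA of LNCaP cells (4 replicates labelled siGATA2 and 4 labelled siControl, 72 h after transfection) was hybridised to one-colour Agilent arrays. For each spot the authors deposited the intensity written by Agilent Feature Extraction 11.0.1.1, with its quality flags, and a matrix of log2 values that per the paper's methods was quantile-normalized in GeneSpring. Spots marked as outliers (228 to 549 per array) were left out. Log2 processed signals were averaged over the spots of a probe and quantile-normalized with limma 3.58.1 in R 4.3.3. Of 42405 probes that were no controls, 26364 had a symbol in RefSeq, and 1914 without annotation and those with a mean under 3 were removed, which left 35365. The brightest probe stood for a gene. Genes other than the UGT2B enzymes were compared by limma's moderated test (lmFit, eBayes), Benjamini-Hochberg adjusted over all 35365 probes, at 0.05. A check on simulated data came first, with 50 probes changed at each size, far fewer than were called here. It recovered 30% of changes of 1 log2 unit and 72% of changes of 2 units. A gene that did not pass may thus still differ. A probe was well above background on an array if Feature Extraction marked any of its spots so, and no spot was saturated.

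The members and the gene lists were chosen with earlier results of these data known. Named are the members, their chromosomal neighbours, the 5 genes most like UGT2B10, the called gene of each list with the largest fall and rise without overlap, and FOXA1, UGDH, SLC35D1, GUSB, AKR1C3, SRD5A1, UGT1A1, KLK3 and GATA2. Some list genes are not reported here. Other called genes of the lists and the markers were named after their values were seen. Same-numbered arrays of the 2 groups deviated together with r of 0.54, -0.31, 0.17 and 0.23, which does not settle whether the numbers pair them. The main fits left them unpaired, and a fit with the replicate number as a block is given below. The other settings tried were 75th percentile scaling, scaling to 7 probes for the E1A spike-in, normexp with an offset of 50, the deposited log2 values, blocks by replicate number, slide row or title letter, array weights, other filters, tests and thresholds, and leaving out arrays. Arrays have no read depth, and their number, 4 per group, limits the precision. Standard errors and p-values take the 4 arrays of a group as independent. For some genes siGATA2 arrays 1 and 2 stood apart from arrays 3 and 4. KLK3 read 16.48 and 16.20 against 14.59 and 14.70, and TTR 7.14 and 7.09 against 8.62 and 8.71. For others, such as UGT2B10, they did not stand apart. All arrays lay on 1 slide.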

Additional observations from a re-analysis of the deposited data

Results flagged for a closer look

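UGT2B10 on siControl array 1 stood apart from the other 3 siControl arrays, at 11.45 against 12.52 to 12.64 on the log2 scale, a gap of 0.899 of the whole range of the group. Of 48 groups of 4 arrays examined, 1 was singled out in this way, and chance gives about 1 in 20.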

How the results depend on the processing

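UGT2B15, UGT2B11, UGT2B7 and UGT2B10 were lower under all alternatives run, with groups that did not overlap, and UGT2B4 was lower too. Leaving out arrays, blocks, array weights and the mean over a gene's probes could not have made these 4 groups overlap. Only other scalings, normexp and the deposited values could have done so. Leaving out 1 array at a time gave -4.79 to -4.42 for UGT2B15, -3.84 to -3.21 for UGT2B11, -3.04 to -2.41 for UGT2B7, -2.82 to -2.42 for UGT2B10 and -1.52 to -0.62 for UGT2B4. Scaling to the E1A probes moved the median of all genes from 0.09 to -0.43, UGT2B15 to -5.10, UGT2B10 to -3.15 and UGT2B4 to -2.18, and left 13 list genes lower and 1 higher, against 18 and 9. Of the list genes, 5 were higher with slide row as a block and 4 with a fold of 2 added, and leaving out 1 array gave 17 to 18 lower and 5 to 9 higher, the fewest without siControl array 3. With the replicate number as a block, 18 were lower and 7 higher, the difference of UGT2B15 was -4.54, and no other direction turned. KLK3 lost its call in 9 of 23 alternatives (adjusted p from 0.00827 to 0.138) and HK1 in 9 (0.00675 to 0.975), and E1A scaling ended 13 of the 27 list calls (UGT1A6, UXS1, HK1, PGM2, ABCC1, PAPSS2, HSD17B6, HSD17B10, CEBPA, PPARA, HNF4A, NDRG1 and ACSL3). UGDH (-0.43, limma adjusted p = 0.0478) and GATA2 (0.80, limma adjusted p = 0.0299) passed with array weights. Signs turned with E1A scaling for HK1 (-0.045), FOXA1 (-0.67), GUSB (-0.56) and YTHDC1 (-0.20), with 75th percentile scaling for FOXA1 (-0.067) and SLC35D1 (0.32), with normexp for SLC35D1 (0.071) and UGT2A2 (0.061), with siControl arrays 2 and 4 only for FOXA1 (-0.056) and SLC35D1 (0.70), with slide row for SLC35D1 (0.13) and SRD5A1 (0.020), with array weights for FOXA1 (-0.032) and SLC35D1 (0.49), and on leaving out 1 array for FOXA1 (-0.016 to 0.077), SRD5A1 (-0.28 to 0.070) and SLC35D1 (-0.49 to 0.26). These causes were not tested. Signal near background limits UGT2B4, and normexp, whose offset shrinks dim probes, gave it -0.20, HSD17B2 -0.81 and ABCC3 0.91.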
